A study of Mus musculus with 4 samples.

Results

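The let-7-linked oncofetal genes described here are Lin28a, Lin28b, Trim71, Hmga1, Hmga2, Igf2bp1, Igf2bp2 and Igf2bp3. They were taken by name, and all 8 were found among the 55602 genes of the count table. The cells were JB1, male F1 hybrid embryonic stem cells (ESCs) whose maternal chromosomes are JF1 and paternal ones C57BL/6 (B6), and a Zfp57-/- line derived from it. Zfp57 encodes a zinc finger protein that holds DNA methylation at imprinting control regions. ESCs of both lines were kept in a serum-free medium with the Gsk3 inhibitor CHIR99021, then moved to a defined differentiation medium, given 1 µM cyclopamine, which blocks hedgehog signalling, from day 2 to day 10, and harvested at day 12. There were 2 libraries of each genotype, made from total RNA without its ribosomal fraction and read in pairs with the strand kept. Each genotype is 1 line, so genotype and line cannot be told apart. The p-values measure the spread between 2 cultures of each.

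LIN28A and LIN28B are RNA-binding proteins that bind precursors of the let-7 microRNA and block their maturation. Mature let-7 in turn represses mRNAs that carry matches to its seed in the 3′ UTR, and mRNAs of the Lin28, Trim71, Hmga and Igf2bp genes are textbook targets. Many of these genes are high in early embryos, ESCs or young neural progenitors, and fall as development goes on while let-7 rises.

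The let-7 family is shown first, since its seed is what links the 8 genes. The mature 5p strands listed by RefSeq (GRCm38.p6) are 9 different sequences, and all 9 hold the same seed, GAGGUAG. In the 4 sequences below, read 5′ to 3′, capitals mark bases 2 to 8. Mature let-7g lies at chr9:106178846-106178867 on the plus strand and miR-98 at chrX:151913229-151913250 on the plus strand, and let-7c is listed at chr16:77599672-77599693 and again at chr15:85706616-85706637.
let-7a: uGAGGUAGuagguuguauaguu
let-7c: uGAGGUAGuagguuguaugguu
let-7g: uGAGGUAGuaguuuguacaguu
miR-98: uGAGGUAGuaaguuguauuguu

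The 3′ UTRs of the 8 genes were searched on the transcribed strand for CTACCTCA (an 8mer site), and elsewhere for CTACCTC (7mer-m8) or TACCTCA (7mer-A1), in 1 principal transcript a gene of GENCODE vM21 (GRCm38), that with the longest 3′ UTR. Every one of the 8 held at least 1 site and 7 held an 8mer, Hmga1 being the exception with a single 7mer-m8. An 8mer was present in 2.77% of the 3′ UTRs of 21037 coding genes, and in 5.42% of the 8304 that are at least as long as the shortest of the 8. A site of any kind was present in 13.7% and 26.1% of them. Hmga2 held 7 sites, Trim71 6, Lin28b and Igf2bp1 5 each, Lin28a and Igf2bp2 2 each, and Hmga1 and Igf2bp3 1 each. The genes were long known as let-7 targets, so this count describes them and does not test them. One site of each is printed below, on the gene's strand and 5′ to 3′, with the match in capitals.
Lin28a, chr4:134005189-134005211, minus strand: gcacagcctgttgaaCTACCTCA
Lin28b, chr10:45381022-45381044, minus strand: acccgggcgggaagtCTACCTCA
Trim71, chr9:114512472-114512494, minus strand: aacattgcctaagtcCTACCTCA
Hmga1, chr17:27563277-27563298, plus strand: tcctctgttcacaaaCTACCTC
Hmga2, chr10:120364224-120364246, minus strand: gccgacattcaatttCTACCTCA
Igf2bp1, chr11:95961778-95961800, minus strand: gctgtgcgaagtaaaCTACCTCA
Igf2bp2, chr16:22059473-22059495, minus strand: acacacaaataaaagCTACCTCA
Igf2bp3, chr6:49086787-49086809, minus strand: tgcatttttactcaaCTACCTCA
The sites of Lin28b and Hmga2 that are printed lie 36 and 21 bases into the 3′ UTR. Of the 4 8mers of Trim71, a pair starts 3591 and 3617 bases past the stop codon. A match is a description of the sequence, and repression at these sites was not measured.

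**Figure D1:**
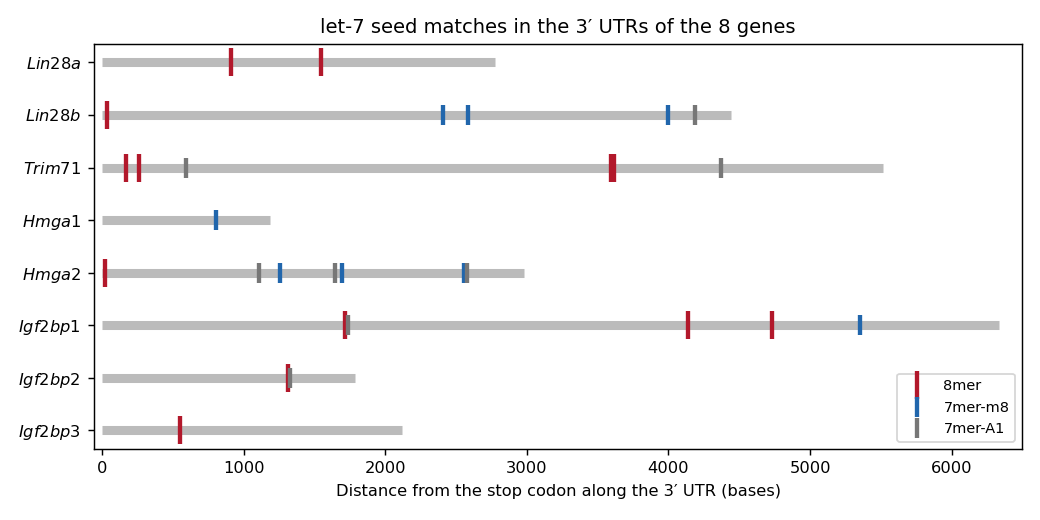
Position of let-7 seed matches along the 3′ UTR of each gene, in bases from the stop codon (grey line, full 3′ UTR; red, 8mer; blue, 7mer-m8; dark grey, 7mer-A1). Hmga2 holds 7 sites and Hmga1, with the shortest 3′ UTR (1183 bases), holds 1.

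The authors' counts of uniquely aligned fragments summed to between 7663520 and 10337082 per library. They were scaled by edgeR's TMM method to counts per 1000000 (CPM), and the 19995 genes with more than 8 counts in all were compared between genotypes by edgeR's quasi-likelihood test, with p-values adjusted over all of them (Benjamini-Hochberg, threshold 0.05). Of the 8 genes, 3 were higher in Zfp57-/- cells, 1 was lower and 4 did not pass, while 27.6% of all genes tested passed in either direction, 13% higher and 14.6% lower. The libraries of the genotypes did not overlap for 7 of the 8, against 66.3% of all genes tested. Their median log2 fold change was 0.15, beside -0.01 over all genes tested. In wild-type libraries Zfp57 itself was counted 392 and 249 times, and in Zfp57-/- libraries 158 and 144 times, a log2 fold change of -1.19 ± 0.32 (SE, adjusted p = 0.0225 by edgeR, 0.0719 without Zfp57-/- replicate 2). The counts cover the whole gene and do not show the deletion. In Zfp57-/- cells 0 of 158 allelic reads of Zfp57 came from the maternal allele, which allows a share of up to 0.0190, against 0.648 ± 0.030 (SD, n = 2) in wild-type. Reads of the paternal allele did not fall. Scaled for depth, they were at 10.0 and 4.68 CPM in wild-type and 8.80 and 7.77 CPM in Zfp57-/- libraries.

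Lin28a, a cytoplasmic suppressor of let-7 maturation, differed most. It had 51.5 and 75.3 CPM in the wild-type libraries and 408 and 428 CPM in the Zfp57-/- libraries, from 416, 789, 3797 and 4186 counts. Both mutant libraries stood far above both wild-type libraries, by 6.58-fold (log2 fold change 2.72 ± 0.23 SE, edgeR adjusted p = 3.26e-05). In bulk RNA, more cells of a type and more RNA per cell cannot be told apart. The gene lies at chr4:134003330-134018841 on the minus strand, and 95.4% of genes tested had a smaller fold change. Its paralogue Lin28b, which blocks let-7 at the primary transcript as well, had lower values in the Zfp57-/- libraries, without a call. It had 73.7 and 74.4 CPM in wild-type and 57.5 and 45.0 CPM in Zfp57-/- libraries. The groups did not overlap, but the log2 difference of -0.53 ± 0.20 (SE) missed the threshold (edgeR adjusted p = 0.0752). It ran from -0.71 to -0.36 with 1 library left out. A correction for gene length gave -0.35 without a call.

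Trim71, a ubiquitin ligase and RNA-binding protein that represses differentiation genes, had 121 and 139 CPM in wild-type and 511 and 561 CPM in Zfp57-/- libraries. It rose 4.13-fold (log2 fold change 2.05 ± 0.20 SE, edgeR adjusted p = 6.69e-05), with no overlap. Scaling to Actb, which the study used for its markers, moved the median of all genes by -0.67 on the log2 scale. Actb is 1 gene, and its own level differed between the wild-type libraries. It had 1812 and 3596 CPM in wild-type and 3764 and 4013 CPM in Zfp57-/- libraries, without a call (edgeR adjusted p = 0.217). On the Actb scale the log2 fold change of Trim71 was 1.39 and its edgeR adjusted p 0.0579. Relative to the median of all genes it was 2.07 there and 2.06 with TMM.

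Hmga1, an architectural chromatin protein that binds AT-rich DNA, had 46.7 and 53.6 CPM in wild-type and 226 and 233 CPM in Zfp57-/- libraries. It rose 4.57-fold (log2 fold change 2.19 ± 0.20 SE, edgeR adjusted p = 4.25e-05). Hmga2, its relative with many let-7 sites and a known role in young neural stem cells, had 117 and 175 CPM in wild-type and 114 and 136 CPM in Zfp57-/- libraries. Here the groups overlapped, and the wild-type libraries stood farther apart than the mutant ones. The log2 difference of Hmga2 was -0.22 ± 0.23 (SE, edgeR adjusted p = 0.521). It was -0.51 without wild-type replicate 1 and 0.10 without wild-type replicate 2, so its sign rested on 1 library.

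Hmga1 has a near copy, Hmga1b, at chr11:120762794-120764419, and 34.3% of the windows of 1 read length along Hmga1 transcripts occur unchanged in Hmga1b. The authors kept reads with a single place in the genome, so pairs lying wholly in such shared stretches may be missing from the counts of Hmga1. Pairs with a mate outside them may still be counted. Hmga1b had 26.1 and 46.5 CPM in wild-type and 56.2 and 50.2 CPM in Zfp57-/- libraries. Its log2 difference of 0.55 did not pass (edgeR adjusted p = 0.159), and ran from 0.17 to 1.02 with 1 library left out. None of the other 7 genes shared such a window with another gene.

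The Igf2bp genes encode RNA-binding proteins that hold and stabilize target mRNAs, Igf2 among them. Igf2bp1 had 347 and 433 CPM in wild-type and 523 and 602 CPM in Zfp57-/- libraries. The groups did not overlap, but the log2 difference of 0.53 ± 0.20 (SE) missed the threshold (edgeR adjusted p = 0.0767), and its sign turned to -0.11 when Actb was the scale. A correction for gene length gave 0.72 and a call (edgeR adjusted p = 0.0228). The log2 difference was 0.35 without wild-type replicate 1 and 0.69 without wild-type replicate 2.

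Igf2bp2, the member that persists in adult tissues, had 178 and 207 CPM in wild-type and 110 and 132 CPM in Zfp57-/- libraries. It was lower by 0.67 ± 0.20 on the log2 scale, 0.630 of the wild-type level (edgeR adjusted p = 0.0317). The call did not hold with either Zfp57-/- library left out or with Actb as the scale (edgeR adjusted p = 0.0677), each with the same sign. Its log2 difference ran from -0.80 to -0.54 with 1 library left out. Over all genes, too, fewer passed without a Zfp57-/- library, which also applies to calls lost in those fits below. Igf2bp3 had 223 and 257 CPM in wild-type and 184 and 182 CPM in Zfp57-/- libraries. Its log2 difference of -0.39 ± 0.19 (SE) did not pass (edgeR adjusted p = 0.150), and ran from -0.52 to -0.29 with 1 library left out.

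**Figure D2:**
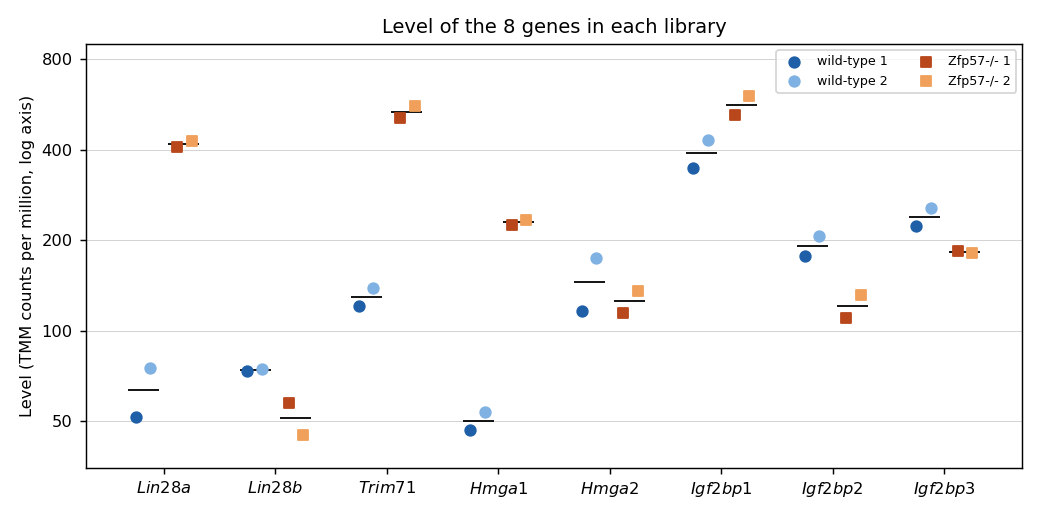
Level of each gene in the 4 libraries (CPM after TMM, log axis; circles, wild-type; squares, Zfp57-/-; bars, mean of the 2 libraries of a genotype). The mutant libraries of Lin28a, Trim71 and Hmga1 stand well above the wild-type ones, while those of Hmga2 overlap with them.

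**Figure D3:**
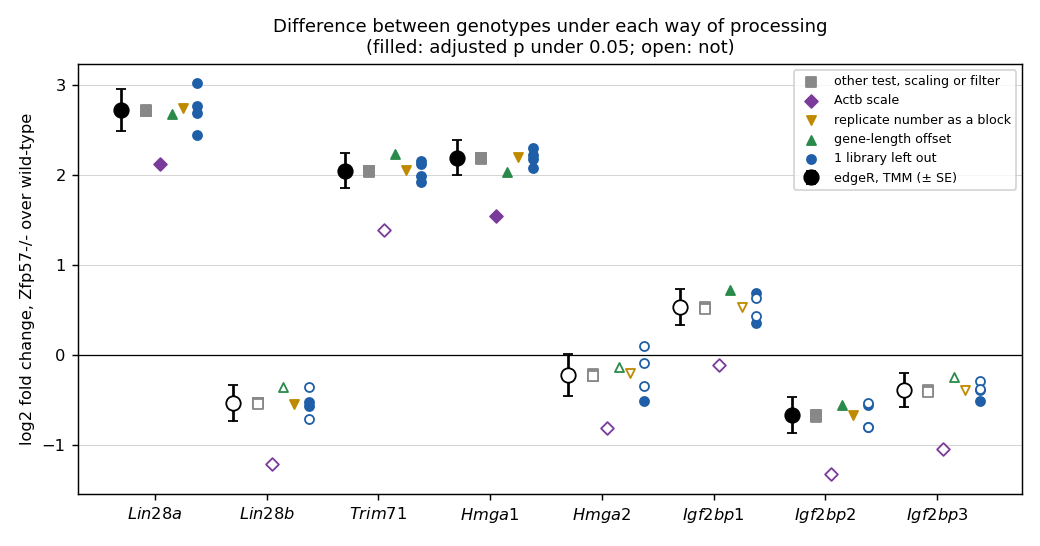
Log2 fold change of each gene, Zfp57-/- over wild-type, with edgeR and TMM (black, ± SE) and under each alternative (colours; filled symbols passed an adjusted p of 0.05). Lin28a and Hmga1 passed under every alternative drawn, Trim71 under all but the Actb scale, and the Actb scale lowered all 8 values.

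Levels of different genes were compared per length, as FPKM, the CPM divided by the exon length in kilobases. In wild-type cells Igf2bp1 was the most abundant of the 8, at 40.3 ± 6.2 FPKM (SD, n = 2), followed by Igf2bp3 (29.4), Igf2bp2 (25.9), Hmga1 (23.6), Hmga2 (21.5), Lin28a (15.9), Trim71 (13.9) and Lin28b (8.17). Only Igf2bp1 and Igf2bp3, and Trim71 and Lin28b, were neighbours in this order whose libraries did not overlap. In Zfp57-/- cells Hmga1 (108 ± 2 FPKM) and Lin28a (105 ± 4 FPKM) led with overlapping libraries, followed by the overlapping Igf2bp1 (58.1) and Trim71 (57.4). Igf2bp3 (22.4), Hmga2 (18.5), Igf2bp2 (16.3) and Lin28b (5.65) came after a gap. The FPKM of Hmga1 were divided by its full exon length. As 34.3% of its read windows also occur in Hmga1b, its fragments may be undercounted. Its place in either order, its share below and the Hmga sum are not corrected for this.

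Shares within a family do not depend on how libraries are scaled. Lin28a made up 61.3 and 69.7% of the Lin28 fragments per kilobase in wild-type and 94.1 and 95.6% in Zfp57-/- libraries. Hmga1 made up 56.1 and 49.4% of the Hmga pair in wild-type and 86.3 and 84.5% in Zfp57-/- libraries. In both pairs the share of the first gene was higher in each mutant library than in each wild-type one, by 29.4 and 32.7 percentage points on average. Within the Igf2bp family the share of Igf2bp1 was 41.2 and 43.0% in wild-type and 59.1 and 60.8% in Zfp57-/- libraries. Igf2bp2 went from 27.2 ± 0.5% to 16.8 ± 0.8% and Igf2bp3 from 30.8 ± 0.8% to 23.2 ± 2.1% (SD, n = 2). The sum of the Igf2bp family was 95.6 ± 11.9 FPKM in wild-type and 96.9 ± 7.6 FPKM in Zfp57-/- cells, which differed by less than the spread between replicates (exact two-sided permutation test, p = 1.0). The Lin28 sum was 24.0 ± 4.3 and 110 ± 3 FPKM, and the Hmga sum 45.1 ± 8.4 and 126 ± 5 FPKM. Each of the 7 shares and these 2 sums gave p = 0.333, the smallest that an exact test of 2 against 2 libraries can give.

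**Figure D4:**
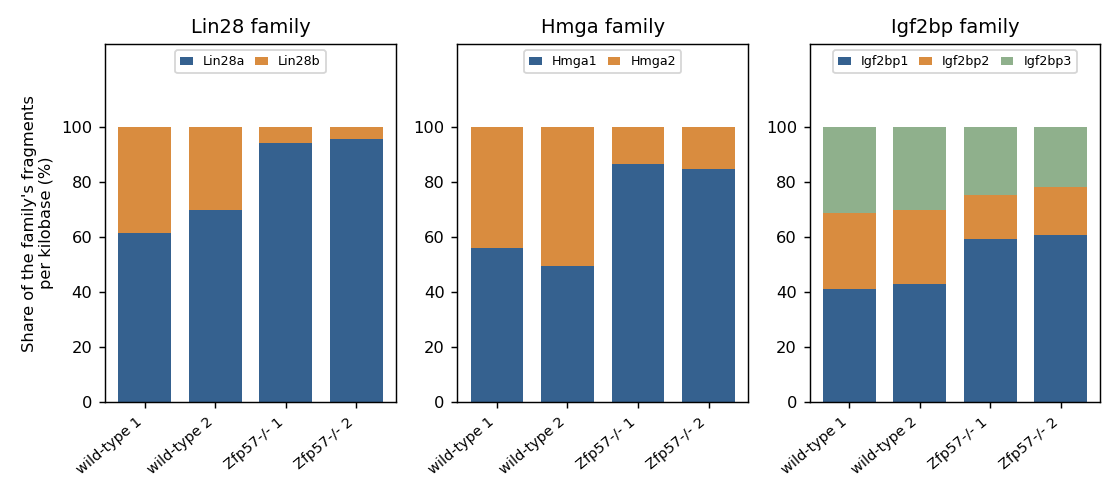
Share of each paralogue in the fragments per kilobase of its family, in percent, for each library (bars add up to 100). Lin28a fills 94.1 and 95.6% of its pair in the Zfp57-/- libraries, and Igf2bp1 has a larger part in the mutant libraries and Igf2bp2 and Igf2bp3 a smaller one.

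The promoters of both Lin28 paralogues and of Hmga1 are printed as the clearest contrast, from 250 bases before to 50 after the start listed by RefSeq (GRCm38.p6). RefSeq promoters were matched for 7 of the 8 genes, and Igf2bp1 had no entry. The start listed for Lin28b, chr10:45470201, lies inside the counted gene, which runs to 45486395. Sequence at that upstream end was not searched, so the Lin28b result covers the listed start only. Hmga1 had a second entry, from chr17:27556354, with the same number of each motif. Letters were searched on both strands: TGCCGC or GGCCGC, the hexamer that ZFP57 binds when methylated, ATTTGCAT, the octamer of POU factors, and CATTGT, a core of SOX motifs, and matches are in capitals. The Lin28a promoter is at chr4:134018767-134019066 (minus strand), that of Lin28b at chr10:45470152-45470451 (minus strand) and that of Hmga1 at chr17:27556324-27556623 (plus strand).
Lin28a: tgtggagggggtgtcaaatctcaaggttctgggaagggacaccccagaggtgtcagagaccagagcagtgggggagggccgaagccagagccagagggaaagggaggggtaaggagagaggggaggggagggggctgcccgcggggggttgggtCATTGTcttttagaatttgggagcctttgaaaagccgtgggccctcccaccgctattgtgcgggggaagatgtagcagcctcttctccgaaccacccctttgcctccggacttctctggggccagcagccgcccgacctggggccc
Lin28b: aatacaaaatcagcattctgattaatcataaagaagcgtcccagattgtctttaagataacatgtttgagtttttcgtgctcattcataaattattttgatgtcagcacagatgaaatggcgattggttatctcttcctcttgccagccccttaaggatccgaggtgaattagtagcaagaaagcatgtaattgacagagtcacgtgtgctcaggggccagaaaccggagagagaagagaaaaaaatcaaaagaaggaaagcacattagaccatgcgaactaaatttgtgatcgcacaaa
Hmga1: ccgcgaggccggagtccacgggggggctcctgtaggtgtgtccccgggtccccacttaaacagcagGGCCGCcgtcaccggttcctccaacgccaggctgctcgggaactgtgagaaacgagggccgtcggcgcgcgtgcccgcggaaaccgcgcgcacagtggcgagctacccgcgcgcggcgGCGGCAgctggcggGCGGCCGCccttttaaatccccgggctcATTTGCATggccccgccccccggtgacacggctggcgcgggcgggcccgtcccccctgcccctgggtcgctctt
Lin28a held 1 CATTGT, Lin28b held none of the 3 motifs, and Hmga1 held 4 hexamers, some of which overlap, and 1 octamer. Trim71 and Igf2bp2 held 1 hexamer each, and Hmga2 and Igf2bp3 none of the 3. Among all 32851 promoters of the same length, 26.8% held a hexamer (2.24% held 4 or more), 1.74% the octamer and 12.6% CATTGT. CpG dinucleotides numbered 10 for Lin28a, 8 for Lin28b and 40 for Hmga1, beside a median of 7. These are letters in a window and say nothing of binding or methylation, which the tables do not measure.

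The other genes of the let-7 pathway came from lists of textbook genes. Of 20 genes for small RNA processing and let-7 control, 2 rose, 6 fell and 12 did not pass, beside 13% of all genes tested higher and 14.6% lower. Their median log2 fold change was -0.12. Msi1, a neural RNA-binding protein that can carry LIN28A to let-7 precursors, had 128 and 142 CPM in wild-type and 16.2 and 19.4 CPM in Zfp57-/- libraries, a log2 fold change of -2.92 ± 0.21 (SE, edgeR adjusted p = 1.35e-05). Its relative Msi2 fell by 1.20 (adjusted p = 0.00145) and Ago1, an Argonaute that carries mature microRNAs, by 1.20 (adjusted p = 0.00190). Ago4, Prkra, a Dicer partner, and Tut4, which adds uridines to LIN28A-bound let-7 precursors, fell as well, by 1.41, 0.90 and 0.80. Tarbp2, the other Dicer partner, and Dis3, an exosome nuclease, rose by 1.00 and 0.84, but by 0.37 and 0.15 without a call when Actb was the scale. Without Zfp57-/- replicate 1 the calls of Tarbp2, Prkra, Ago4, Tut4 and Dis3 did not hold, nor those of Prkra, Tut4 and Dis3 without Zfp57-/- replicate 2. Drosha, Dgcr8, Dicer1 and Dis3l2, the core of let-7 maturation and decay, were among the 12 without a call.

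Of 15 let-7 hairpin and host genes, 14 were in the table, 6 were tested and 2 fell, beside 13% of all genes tested higher and 14.6% lower. The 4 tested without a call were hairpins with at most 15 counts in any library. The 2 that fell are long noncoding host genes. Mirlet7bhg, a let-7b host on the list, was not found under that name. Genes that hold other let-7 hairpins on the same strand were not in the list under their names in the table. Such genes include 6720427I07Rik, Huwe1 and Lncppara, which lies around the let-7b hairpin. Their levels were not examined, so the fall covers these 2 hosts only. Mir99ahg, which holds the let-7c-1 hairpin on its own strand, was counted 650 and 189 times in wild-type and 41 and 28 times in Zfp57-/- libraries (log2 fold change -3.75 ± 0.72 SE, edgeR adjusted p = 0.00879). The let-7a-2 host Mir100hg, listed in the table as 3110039I08Rik, was counted 1400 and 431 times in wild-type and 126 and 98 times in Zfp57-/- libraries (-3.18 ± 0.64, adjusted p = 0.0108). For both, wild-type replicate 1 had over 3 times the counts of replicate 2. Without wild-type replicate 1 the log2 fold changes were -2.34 and -1.83, and without wild-type replicate 2 they were -4.47 and -3.88. Neither passed when genes with low counts were kept (adjusted p = 0.156 and 0.272). The let-7a-2 hairpin itself had 14, 4, 0 and 1 counts and the let-7c-1 hairpin 11, 5, 0 and 1 (wild-type first), and neither passed (adjusted p = 0.0580 and 0.0599). Libraries of long RNA count fragments of host transcripts and precursors, so the level of mature let-7 was not measured.

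Of 26 other textbook let-7 targets, all tested, 5 rose, 9 fell and 12 did not pass, beside the same 13% and 14.6% over all genes, and the median log2 fold change was 0.05. Arid3b, Nr6a1 and Myc rose by 1.14 (edgeR adjusted p = 0.00219), 1.08 (0.00244) and 1.41 (0.00385). Nr6a1 is an orphan nuclear receptor of early embryos, and Myc a growth regulator. Cdc34 and Stard13 rose too, by 1.02 and 0.91. With Actb as the scale none of these 5 passed. Igdcc3, a cell surface protein, had 107 CPM in both wild-type and about 13 CPM in Zfp57-/- libraries, and Ccnd2, a G1 cyclin of neural progenitors, 402 and 592 against 78.2 and 91.0 CPM. Igdcc3 fell by 3.04 (adjusted p = 8.42e-06), Ccnd2 by 2.56 (5.75e-05) and Tgfbr1 by 1.24 (0.00113). Ccnd1, Plag1, Plagl2, Insr and Igf1r fell by between 0.89 and 1.58. Nr2e1, a nuclear receptor of neural stem cells, was counted 11 and 12 times in wild-type and 0 times in both Zfp57-/- libraries, at least 3.99-fold lower against a floor of 3 counts per library. Without Zfp57-/- replicate 1 or replicate 2 the calls of Igf1r, Insr, Plagl2 and Stard13 did not hold, nor that of Cdc34 without replicate 2, and that of Igf1r was also lost with the length correction. Over all tested genes with an 8mer in the 3′ UTR (500 genes) the median log2 fold change was -0.10, with 14% higher and 17.8% lower. Over the 12761 with no site it was 0.07, with 15.3% higher and 15.7% lower. Longer 3′ UTRs hold an 8mer more often, and these sets were not matched for length. The part of let-7 sites in this difference was not tested.

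Of 8 mRNAs known to be bound by IGF2BP proteins, 3 rose, 2 fell and 3 did not pass, beside 13% higher and 14.6% lower over all genes. The imprinted Igf2, a fetal growth factor, had 268 and 208 CPM in wild-type and 33.1 and 35.6 CPM in Zfp57-/- libraries, a fall of 2.79 ± 0.22 on the log2 scale (edgeR adjusted p = 1.79e-05). H19, the imprinted noncoding RNA next to it, had 643 and 433 CPM in wild-type and 1223 and 1382 CPM in Zfp57-/- libraries, a rise of 1.28 ± 0.23 (adjusted p = 0.00304). Mapt, the neuronal tau gene, had 58.2 and 93.3 CPM in wild-type and 5.26 and 6.44 CPM in Zfp57-/- libraries, and fell by 3.69 (adjusted p = 2.00e-05). Myc rose as above and Cd44, a cell surface receptor, by 0.97 (adjusted p = 0.0162). With Actb as the scale H19, Myc and Cd44 did not pass, nor did Cd44 without Zfp57-/- replicate 2 (adjusted p = 0.236).

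Markers of 6 cell types were counted in the same fit, in which 13% of all genes tested were higher and 14.6% lower. All 10 pluripotent cell markers were higher in Zfp57-/- cells, with a summed level of 11.5 to 12.6 CPM in wild-type and 1536 to 1707 CPM in Zfp57-/- libraries, and Nanog was at 0 counts in both wild-type libraries. Of 10 neural progenitor markers 6 were lower (833 to 856 against 415 to 444 CPM), and of 10 neuron markers 9 were lower (1781 to 2323 against 231 to 281 CPM). Of 10 extraembryonic endoderm markers 2 were higher and 1 lower, with 462 to 711 CPM in wild-type and 819 to 1155 CPM in Zfp57-/- libraries. Among 5 endothelial markers 2 were higher and 1 lower (91.9 to 112 against 112 to 133 CPM), and of 5 neural crest markers 1 was higher and 3 lower (87.7 to 122 against 15.1 to 18.6 CPM). The counts for endoderm markers lie near the shares over all genes. The part of these markers in the levels of the 8 genes was not tested.

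Genes whose level over the 4 libraries was most like that of each of the 8 were found among genes with at least 5 CPM on average, by the Euclidean distance of log2 CPM centred on the mean of the gene. For Lin28a these were Cdc42ep5 and Cldn4 (distance 0.115 and 0.118), for Trim71 Arhgef16 and Tpm1 (0.0744 and 0.0920) and for Hmga1 Akr1e1 and Csrnp1 (0.0389 and 0.0470). Cldn4 is a tight junction protein, and had 9.66 and 13.3 CPM in wild-type and 70.6 and 78 CPM in Zfp57-/- libraries. The nearest to Lin28b were Acyp1 and Cbarp, to Hmga2 Pip4k2b and Snx24, to Igf2bp1 Shroom3 and Rbfa, to Igf2bp2 Pde4dip and Pea15a, and to Igf2bp3 Zfp512 and Cbll1, all within 0.0589. With 4 libraries many genes share a pattern, and the distances describe these libraries only.

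Reads that cover a JF1 or B6 variant were counted per allele by the authors, and the maternal share is JF1/(JF1 + B6). Of the 8 genes, 6 had enough allelic reads to be tested. Lin28a had 0 allelic reads among 9188 counts and Hmga1 had 50 among 5318, so the alleles behind their higher level could not be seen. Mean shares of the 6 lay between 0.426 and 0.554 in either genotype, beside medians over autosomal genes of 0.499 (wild-type) and 0.489 (Zfp57-/-). The rise of Trim71 came from both alleles. Its share was 0.470 and 0.479 in wild-type, from 585 and 856 reads, and 0.498 and 0.506 in Zfp57-/- libraries, from 2789 and 3295 reads, and depth-scaled allelic reads rose 3.91-fold for B6 and 4.37-fold for JF1.

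The share differed between genotypes for Igf2bp2 alone among the 6, while 14.5% of 10977 autosomal genes passed this contrast. Igf2bp2 had a maternal share of 0.465 and 0.432 in wild-type (568 and 820 reads) and 0.579 and 0.530 in Zfp57-/- libraries (416 and 508 reads). The mutant shares lay above the wild-type ones, and B6 reads were at 0.526 and JF1 reads at 0.803 of their wild-type level. The contrast of JF1 over B6 between genotypes was 0.62 ± 0.16 (log2, SE; edgeR adjusted p = 0.00223). It did not pass with DESeq2 (adjusted p = 0.249), without wild-type replicate 2 (0.137) or without Zfp57-/- replicate 1 (0.0506). The 15 nearest genes had a median share of 0.478 (wild-type) and 0.488 (Zfp57-/-). Lin28b had a share of 0.438 and 0.415 in wild-type and 0.489 and 0.464 in Zfp57-/- libraries, and departed from an even share in wild-type (edgeR adjusted p = 0.00870), as did Igf2bp2 (0.0224), with a contrast between genotypes of 0.30 ± 0.20 (adjusted p = 0.420). Igf2bp1 had 0.474 and 0.495 in wild-type and 0.437 and 0.468 in Zfp57-/- libraries, and differed from an even share in Zfp57-/- cells (adjusted p = 0.000889) with a contrast of -0.19 ± 0.10 (adjusted p = 0.258). Hmga2 and Igf2bp3 passed neither test. An even share was missed by 23.6% of genes tested in wild-type and by 21.8% in Zfp57-/- cells.

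The near copy Hmga1b was the exception on the allele side. It had 26 and 52 B6 reads and 48 and 131 JF1 reads in wild-type, shares of 0.649 and 0.716. In the Zfp57-/- libraries it had 0 B6 reads and 221 JF1 reads each, 442 in all, which allows a B6 share of up to 0.00679. The 15 nearest genes on chromosome 11 had a median share of 0.508 (wild-type) and 0.497 (Zfp57-/-). Hmga1b was looked at because of its likeness to Hmga1, and the origin of these reads was not tested.

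**Figure D5:**
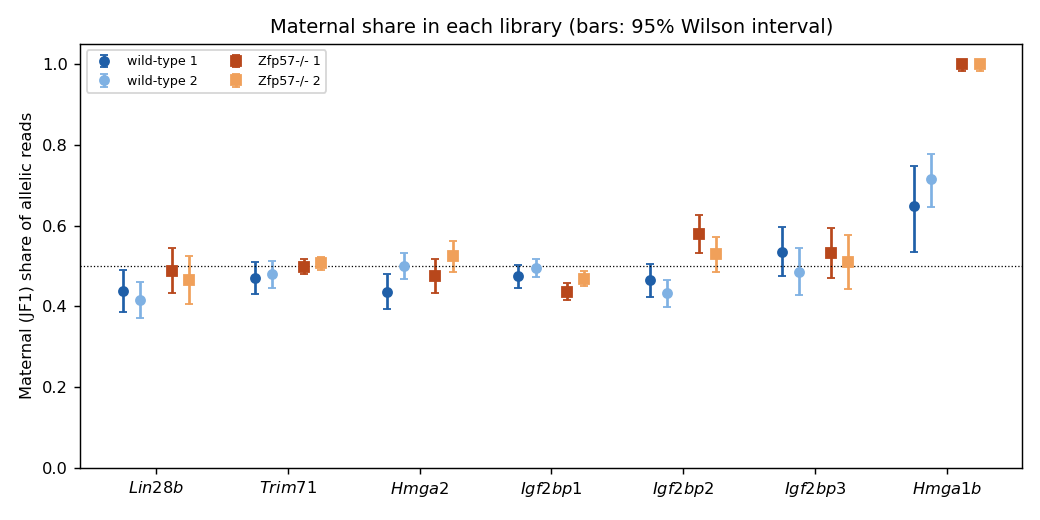
Maternal (JF1) share of allelic reads in each library for the 6 genes tested and for Hmga1b, with 95% Wilson intervals that cover counting error only (circles, wild-type; squares, Zfp57-/-; dotted line, even share). The 6 genes stay near an even share, Igf2bp2 is higher in both mutant libraries, and Hmga1b has JF1 reads alone in the mutant libraries.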

How the data were processed

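The authors aligned reads to GRCm38 with STAR 2.5.4a after Trimmomatic 0.36, keeping single-location alignments, and deposited raw fragment counts per gene from featureCounts (Subread 1.6.0, GENCODE vM20, stranded). Allelic counts came from an alignment to a genome masked at strain variants, split by SNPsplit. The deposited bulk table and the deposited allele table hold other values only as exon lengths, and every sample column was used.

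Bulk counts were tested with edgeR 4.0.16 (R 4.3.3; TMM, robust quasi-likelihood, genotype as the term) on genes with more than 8 counts in all. For alleles, 8 columns were fitted with library terms and, within each genotype, the JF1 over B6 ratio, on autosomal genes whose scaled allelic counts reached 10 in wild-type replicate 1 and in replicate 2. Benjamini-Hochberg adjustment ran over all genes tested, at 0.05. The authors used DESeq2, which served here as an alternative (version 1.42.0). Shares of 1 library have Wilson 95% intervals, which like floors of 3 counts cover counting error only. The fits were tested on simulated data. Alternatives were other scalings and filters, a replicate block, a length correction and each library left out in turn.

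The members and lists were chosen with earlier results of these data known. Genes named are the members, Zfp57, copies and overlapping genes of members, genes of each list past the threshold, with the 3 of smallest adjusted p in each direction given with values, and the 2 nearest in pattern to each member. Drosha, Dgcr8, Dicer1 and Dis3l2 were named after their values were seen. Genes that overlap a member had at most 71 counts in a library, save Malsu1, antisense to Igf2bp3, with 166 to 258, and the counting used strand. Samples with the same replicate number correlated at 0.153 in their deviations from the group means, over 2 pairs, which does not show that the numbers pair them.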

Additional observations from a re-analysis of the deposited data

Results flagged for a closer look

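The maternal share of Igf2bp2 passed a test of its difference between the genotypes with edgeR, but not under every alternative. The log2 ratio of JF1 over B6 reads was 0.62 ± 0.16 (SE) higher in Zfp57-/- than in wild-type cells (edgeR adjusted p = 0.00223), with both mutant libraries above both wild-type ones. The 95% Wilson intervals of the wild-type shares were 0.424 to 0.506 and 0.398 to 0.466, and those of the mutant shares 0.531 to 0.626 and 0.486 to 0.573. The contrast did not pass with DESeq2 (adjusted p = 0.249), without wild-type replicate 2 (edgeR adjusted p = 0.137) or without Zfp57-/- replicate 1 (edgeR adjusted p = 0.0506). It was 1 of the 6 members tested, while 14.5% of all genes tested passed the same contrast.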

How the results depend on the processing

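Lin28a and Hmga1 kept their direction and call under all 12 alternatives (2.12 to 3.02 and 1.54 to 2.29 on the log2 scale), and Trim71 under 11. With Actb as the scale, which shifted the median of all genes by -0.67, 486 genes were higher in place of 2607, 0 of the list genes were higher in place of 9, and 0 of the 8 members were lower in place of 1. The higher share of all calls was then 14% in place of 47.2%. Trim71 was at 1.39 there, Igf2bp2 at -1.32 without a call and Igf2bp1 at -0.11.

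Leaving out each library in turn gave 1280 (without Zfp57-/- replicate 1) to 5103 genes higher (without wild-type replicate 2), 1551 to 4844 lower (the same libraries), 0 to 4 members lower and 5 to 19 list genes higher. Log2 differences then ran from -0.71 to -0.36 for Lin28b, -0.51 to 0.10 for Hmga2, 0.35 to 0.69 for Igf2bp1, -0.80 to -0.54 for Igf2bp2 and -0.52 to -0.29 for Igf2bp3. The allele contrast ran from 0.48 to 0.77 for Igf2bp2 and -0.077 (without wild-type replicate 2, the sign turned) to 0.21 for Igf2bp3, and 298 to 545 genes had a higher JF1 share in place of 459. Over all genes, more passed without a wild-type library and fewer without a Zfp57-/- one, so a call won or lost there does not stand alone. With 1 library left in a genotype, it is assumed to vary like the others.

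DESeq2 gave 182 genes with a higher JF1 share and 652 with a lower one in place of 1129, and 0.62 for Igf2bp2 without a call. The length correction gave 0.72 for Igf2bp1. With the replicate number as a block, Lin28b was at -0.54 with a call (edgeR adjusted p = 0.0325), 2 members were lower, and 6984 genes were called in place of 5522; no other member's call changed. From counts without length, shares moved by 43.3 points for Lin28a and -43.3 for Lin28b, 38.7 for Hmga1 and -38.7 for Hmga2, and -9.47 for Igf2bp2. The cause of these changes was not tested. With 2 libraries a genotype, calls near the threshold rest on single libraries, and allelic depth leaves Lin28a and Hmga1 without a value.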
